A study of Homo sapiens with 12 samples.

Results

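The comparison described here sets MOLT4 cells treated for 6 h with 250 nM THAL-SNS-032 against MOLT4 cells kept for 6 h in 0.1% DMSO, the vehicle, with 3 RNA libraries on each side. These are 6 of the 12 libraries of the study, chosen by their treatment labels. MOLT4 is an established human line of T-cell acute lymphoblastic leukemia (T-ALL), and all groups come from this line with no genetic change named in the labels. The remaining libraries, 3 with 250 nM SNS-032 and 3 with 250 nM NVP-2 for the same 6 h, enter only where a direct contrast with THAL-SNS-032 is given. Poly(A) RNA was sequenced and reported as FPKM, fragments scaled for transcript length and for the number of mapped fragments. Of 23617 gene names, 11379 averaged at least 1 FPKM across the 12 libraries and were tested. Counts were not part of the table, so the sequencing depth behind each value is unknown. Whether the 3 libraries of a group are separate cultures is not stated in the labels, and the p-values therefore cover the spread between libraries, which may be technical.

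RNA polymerase II pauses shortly after it starts on most genes. The kinase CDK9 with a cyclin T subunit forms P-TEFb, which phosphorylates the polymerase and its pausing factors and so lets it enter productive elongation, while a pool of P-TEFb is held inactive on the small nuclear RNA 7SK. THAL-SNS-032 joins SNS-032, an inhibitor of CDK9 and related kinases, to a thalidomide derivative that binds cereblon, which picks the substrates of a ubiquitin ligase, so that CDK9 protein is marked for degradation. Because the compound acts on the protein, the level of CDK9 mRNA is no check of its action.

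Values were read on both a deposited and a centred scale. On the deposited scale the spike-in RNAs (ERCC), which were added when the cells were lysed, had nearly equal medians in all libraries. On the median-centred scale each library was divided by the median of its gene ratios to the DMSO mean, so that a gene near 0 changed like the median gene. A difference below is always THAL-SNS-032 minus DMSO of log2(FPKM + 1) means, its SE comes from limma, and a level is mean ± SD of 3 libraries unless the 3 libraries are given. Adding 1 FPKM before the logarithm understates the change of genes that end near the lowest values of the table. A gene was called at a Benjamini-Hochberg adjusted p under 0.05 over all tested genes. The cells were counted before lysis, per the labels. The cell numbers are not given here, so whether the values stand for RNA per cell was not tested.

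Nearly the whole transcriptome was lower after THAL-SNS-032, while the spike-ins were level. The median log2 ratio of a library's genes to the DMSO mean was -0.0905, -0.0157 and 0.0985 in the DMSO libraries and -2.26, -2.05 and -2.25 with THAL-SNS-032. The groups did not overlap, and their difference of -2.18 corresponds to a median level of 0.220 of that in DMSO (exact two-sided permutation p = 0.1, the smallest that 3 against 3 allows). Spike-in medians lay between -0.0315 and 0.0229 in the same 6 libraries (exact permutation p = 0.9). If the deposited values were scaled to the spike-ins, near-equal medians follow from that scaling. They are therefore no separate support for the fall of the genes. Genes at 1 FPKM or more numbered 12083, 11972 and 12189 in DMSO and 9820, 10146 and 9770 with the compound, and genes at 100 FPKM or more fell in number from a mean of 2064 to 638 (exact permutation p = 0.1 for each). The fit called 10786 of 11379 genes lower (94.8%), 9655 of them by at least 2-fold (84.8%), and 156 higher (1.37%). With backgrounds of this size a list in which every member fell is no result about the list, and the lists below are described by how far their members lay from the median of all tested genes, -1.90.

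**Figure D1:**
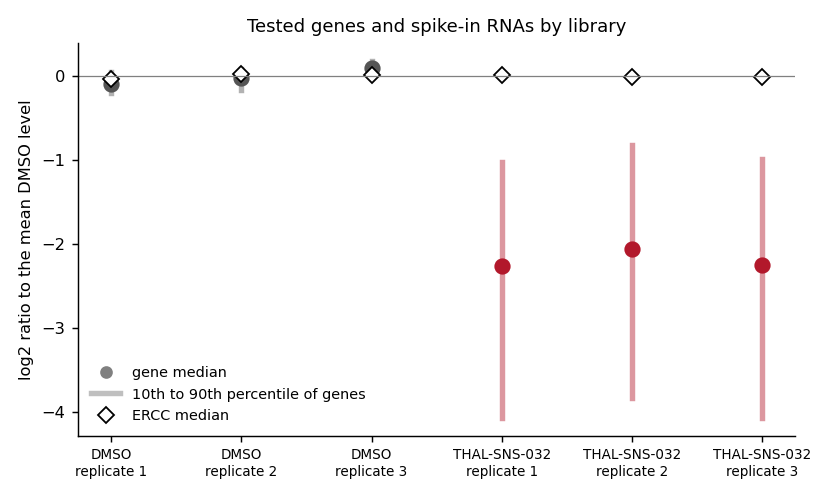
Log2 ratio of the tested genes to the mean DMSO level in each of the 6 libraries, with the gene median as a filled circle, the 10th to 90th percentile of genes as a bar and the ERCC spike-in median as a diamond. The THAL-SNS-032 medians lie at -2.26, -2.05 and -2.25 with bars that reach from about -4.06 to -1.02 in replicate 1, and the diamonds stay near 0 in every library.

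The spread between genes was as wide as the shift itself. With THAL-SNS-032 the 10th percentile of genes stood at -4.06, -3.82 and -4.07 and the 90th percentile at -1.02, -0.813 and -0.983, whereas the same percentiles in DMSO averaged -0.121 and 0.108. After median centring 4819 genes were called higher (42.3%) and 4846 lower (42.6%). Dividing each library by its own median in place of the median ratio moved the median change of all genes to 0.28 and the split to 5949 higher and 3839 lower, and quantile normalization gave 5227 and 4454. A centred rise therefore means only that a gene fell less than the median gene, and quantile normalization turned some of the most abundant transcripts, named below, to the other side.

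Markers of the labelled cell type were present. All 19 T-lineage markers in the table reached 1 FPKM in both groups, and their summed level was 5633 to 6916 FPKM in DMSO and 1859 to 2102 FPKM with THAL-SNS-032. Of 13 myeloid markers none reached a mean of 1 FPKM in DMSO (sum 2.06 to 2.28 FPKM) and 3 did with THAL-SNS-032 (sum 5.23 to 6.44 FPKM), led by MPO at 1.68 FPKM. Erythroid and megakaryocyte markers at 1 FPKM went from 1 of 13 to 0, epithelial and stromal markers stayed at 2 of 16 and B-cell markers went from 4 of 9, led by the kinase gene BLK, to 3.

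How far a transcript fell varied with its level in DMSO. The 179 genes at 1000 FPKM or more had a median log2 ratio of -0.932, the 1786 genes from 100 to 1000 FPKM one of -1.88, the 4500 genes from 20 to 100 FPKM one of -2.36 and the 2963 genes from 5 to 20 FPKM one of -2.40. In the 1037 genes from 1 to 5 FPKM the median ratio was -1.65, in a range where values with THAL-SNS-032 come close to the floor. In that range a gene also passes the filter of 1 FPKM over the 12 libraries more easily if it fell little. The median there is therefore partly set by the filter. The composition of the remaining mRNA moved with this. Transcripts of cytosolic ribosomal proteins made up 25.7%, 27.1% and 26.4% of the summed FPKM of named genes in DMSO and 39.0%, 39.1% and 39.8% with THAL-SNS-032. The 100 genes that were highest in DMSO held 36.9% ± 1.10 of the sum in DMSO and 51.2% ± 0.475 with the compound (SD, n = 3), while the sum itself was 2.49 times larger in DMSO. None of these shares overlapped between the groups (exact permutation p = 0.1 for each).

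The transcripts of P-TEFb and its partners fell by very unequal amounts. CDK9 itself, the kinase that the compound targets, measured 31.6, 37.0 and 39.7 FPKM in the DMSO libraries and 8.93, 10.9 and 9.47 FPKM with THAL-SNS-032, a difference of -1.78 (SE 0.19, limma adjusted p = 2.9e-07). Its cyclin subunits CCNT1 and CCNT2 fell from 26.8 ± 1.49 to 4.84 ± 0.459 FPKM and from 22.9 ± 1.29 to 3.93 ± 0.362 FPKM. After centring CDK9 lay at 0.29, CCNT1 at -0.28 and CCNT2 at -0.35, and under quantile normalization the calls of both cyclins were lost, at 0.0088 for CCNT1 and -0.0094 for CCNT2, where the median gene lies at 0.07. MEPCE, the enzyme that caps 7SK RNA, stood at 118, 132 and 139.5 FPKM in DMSO and at 3.29, 4.46 and 3.62 FPKM with the degrader and changed by -4.77 (SE 0.18, limma adjusted p = 1.8e-11), the most negative value in the list. HEXIM1, the protein that inhibits P-TEFb on 7SK, fell from 47.9 ± 3.77 to 9.04 ± 0.347 FPKM, which was -0.22 after centring but 0.064 on division by each library's own median, where the median gene lies at 0.28. SUPT5H, a subunit of the pausing factor DSIF, fell from 97.6 ± 11.6 to 34.2 ± 1.98 FPKM. All 19 tested members of the P-TEFb, 7SK and pausing list fell on the deposited scale (median -2.21, range -4.77 to -1.21), and after centring 8 were higher and 10 lower.

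Within RNA polymerase II and its initiation machinery some subunits kept much more mRNA than others. All 12 polymerase II subunits fell, from POLR2L at -0.83 and POLR2G at -0.88 to POLR2D at -2.77. POLR2A, which encodes the catalytic subunit, went from 41.2, 50.7 and 54.8 FPKM in the vehicle libraries to 10.4, 12.1 and 10.8 FPKM in the treated ones, and its centred value of 0.05 was not called (limma adjusted p = 0.43). POLR2L, a small subunit that the nuclear polymerases share, measured 231, 292 and 279.9 FPKM in the DMSO libraries and 135, 160.2 and 154 FPKM with THAL-SNS-032. The general transcription factor GTF2B, which recruits the polymerase to the promoter, stood at 73.7, 74.9 and 86.6 FPKM in DMSO and at 1.13, 1.14 and 1.41 FPKM with the degrader and changed by -5.16 (SE 0.20, limma adjusted p = 1.6e-11), whereas TAF10, a subunit of TFIID and SAGA, fell only from 240.3 ± 28.9 to 105 ± 7.19 FPKM. TAF5, another TFIID subunit, went from 17.4 ± 0.694 to 0.184 ± 0.0546 FPKM, close to the floor. In the Mediator complex MED6 fell from 75.8 ± 0.912 to 3.0 ± 0.381 FPKM and MED18 from 34.0 ± 1.80 to 0.970 ± 0.263 FPKM, but MED15 fell from 39.4 ± 3.61 to 23.6 ± 1.32 FPKM and MED12 from 32.3 ± 4.34 to 16.1 ± 0.719 FPKM. Counted after centring, the list of 29 general transcription factors held 13 higher and 15 lower members and the 29 Mediator subunits 9 and 16.

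Elongation factors and the other polymerases showed the same kind of split. LEO1 and PAF1, both subunits of the PAF1 complex that travels with elongating polymerase, fell from 77.4 ± 5.22 to 1.92 ± 0.589 FPKM and from 92.0 ± 7.73 to 5.96 ± 0.220 FPKM. SUPT6H, a histone chaperone of elongation, fell from 79.5 ± 9.34 to 30.3 ± 1.2 FPKM and SUPT16H, the large subunit of the FACT chaperone, from 251 ± 23.3 to 98.3 ± 6.48 FPKM. The 14 members of that list had 7 higher and 6 lower after centring. Subunits of RNA polymerases I and III, which make ribosomal and transfer RNA, lay lower: their 19 members had a median of -2.96 (-1.08 after centring, with 3 higher and 14 lower). The polymerase III subunit gene POLR3D measured 58.8, 61.4 and 70.2 FPKM in the DMSO libraries and 2.33, 2.33 and 2.40 FPKM with THAL-SNS-032. POLR3C, of the same enzyme, went from 41.3, 37.9 and 44.1 FPKM in the vehicle libraries to 1.46, 1.62 and 1.25 FPKM in the treated ones. In both genes the treated libraries lay far below the DMSO libraries. Integrator subunits, which end transcription of paused polymerase and process small nuclear RNAs, had 3 higher and 10 lower of 14 after centring (median -0.32).

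**Figure D2:**
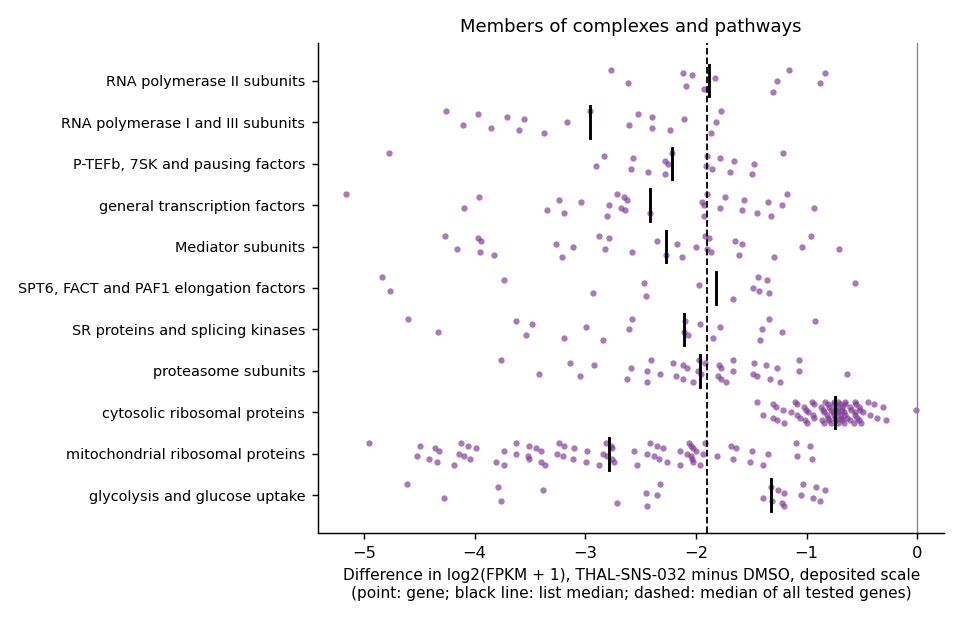
Difference in log2(FPKM + 1), THAL-SNS-032 minus DMSO on the deposited scale, for every tested member of 11 complexes and pathways, with 1 point per gene, a black line at each list's median and a dashed line at the median of all tested genes. Cytosolic ribosomal proteins form a narrow band from -1.45 to -0.01 and polymerase II subunits a wider one from -2.77 to -0.83, while general transcription factors run from -5.16 to -0.93 and Mediator subunits from -4.27 to -0.71.

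Genes of RNA processing divided by family. Among SR proteins and splicing kinases SRSF3, a regulator of exon inclusion, measured 456, 509 and 543 FPKM in the DMSO libraries and 19.2, 20.6 and 19.4 FPKM with THAL-SNS-032 and changed by -4.60 (SE 0.20, limma adjusted p = 3.3e-11). SRSF7, a related SR protein, fell from 419 ± 31.0 to 19.9 ± 2.13 FPKM. SRSF11 fell less, from 267 ± 19.8 to 114 ± 7.42 FPKM, as did SRRM2, a large scaffold protein of nuclear speckles, from 137 ± 22.9 to 71.2 ± 3.46 FPKM. Over 21 members 9 were higher and 10 lower after centring, with a median of 0.018 that became -0.41 under quantile normalization. The 21 hnRNP genes, which encode abundant binders of nascent RNA, had a centred median of 0.54 with 13 higher and 3 lower, but -0.12 under quantile normalization. HNRNPC fell from 999.9 ± 93.2 to 484 ± 38.2 FPKM, HNRNPA1 from 2526 ± 259 to 853 ± 78.9 FPKM with a centred 0.62 that reversed to -0.47 under quantile normalization, and HNRPDL from 341 ± 31.4 to 23.7 ± 2.25 FPKM.

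The spliceosome, cleavage and decay machineries held members at both ends. BCAS2, a component of the PRP19 complex in the spliceosome, stood at 145, 157 and 162 FPKM in DMSO and at 3.74, 4.56 and 3.42 FPKM with the degrader, a change of -4.99 (SE 0.17, limma adjusted p = 1.1e-11). SNRPD2, a core Sm protein, went from 1010.4, 1249 and 1164 FPKM in the vehicle libraries to 715, 807 and 763 FPKM in the treated ones, a change of only -0.58. LSM7, of the Sm-like ring, also fell little, from 586 ± 45.1 to 302 ± 21.1 FPKM. In the cleavage and polyadenylation machinery CSTF1 fell from 75.1 ± 6.76 to 2.18 ± 0.147 FPKM and CPSF1, the largest subunit of the cleavage factor, from 124 ± 13.8 to 71.6 ± 5.47 FPKM. EXOSC4 and EXOSC3, both core subunits of the RNA exosome that degrades RNA from its 3′ end, fell from 87.8 ± 4.17 to 2.39 ± 0.360 FPKM and from 86.7 ± 4.94 to 3.04 ± 0.379 FPKM. NXT1, an mRNA export factor, fell from 138 ± 8.54 to 4.30 ± 0.669 FPKM. RNA-binding regulators of mRNA stability lay on the other side with 12 higher and 4 lower of 18 after centring (median 0.58, and 0.74 under quantile normalization). One of them, ELAVL1, which binds and stabilizes AU-rich mRNAs, fell from 84.3 ± 4.15 to 33.7 ± 2.97 FPKM.

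RBM15, an RNA-binding partner of the m6A writer complex, was the only member of the m6A and export list of 22 that was called higher on the deposited scale. It measured 10.6, 10.3 and 12.4 FPKM in the DMSO libraries and 15.2, 17.8 and 15.4 FPKM with THAL-SNS-032, so that all 3 treated libraries lay above all 3 DMSO libraries, and it differed by 0.50 (SE 0.19, limma adjusted p = 0.02). That call was lost without DMSO replicate 1 (0.47), without DMSO replicate 2 (0.46), without THAL-SNS-032 replicate 2 (0.44) and when libraries were scaled to equal ERCC medians (0.44).

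The lists of protein synthesis genes differed widely in their medians. Cytosolic ribosomal proteins, the structural proteins of the ribosome, kept the most: of 79 members 73 fell, 6 were not called and the median was -0.74. RPL41, a very small protein of the large subunit, measured 8843, 11688 and 11460.2 FPKM in the DMSO libraries and 5084, 5869 and 5458 FPKM with THAL-SNS-032. RPS29, a small-subunit protein, stood at 5192, 6605 and 6154 FPKM in DMSO and at 4303, 5413 and 5040.3 FPKM with the degrader and was not called, at -0.28 (limma adjusted p = 0.21, 95% interval -0.74 to 0.17). RPL4 and RPL5, proteins of the large subunit, fell from 3921 ± 481 to 1485 ± 99.3 FPKM and from 3244 ± 301 to 1307 ± 78.3 FPKM. After centring all 79 were higher with a median of 1.44, which shrank to 0.15 under quantile normalization, where RPL41, RPL4 and RPL5 lay at -0.26, -0.37 and -0.25. Elongation and release factors were close behind (median -1.24, with 9 higher and 4 lower of 13 after centring at a median of 0.94, but -0.088 under quantile normalization). EEF1A1, which delivers aminoacyl-tRNA to the ribosome, went from 6833 ± 849 to 3727 ± 176 FPKM, a centred value of 1.31 that turned to -0.023 under quantile normalization.

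Factors that assemble ribosomes were far below the proteins they assemble. All 51 ribosome biogenesis factors fell with a median of -2.85, and after centring 39 were lower and 7 higher (median -0.80, and -0.92 under quantile normalization). Their share of the summed FPKM was 1.04% in DMSO and 0.552% with THAL-SNS-032, with no overlap between the groups. MPHOSPH10, a protein of the U3 processome, measured 84.8, 87.1 and 90.1 FPKM in the DMSO libraries and 1.24, 1.38 and 1.12 FPKM with THAL-SNS-032, the largest fall among all named genes tested at -5.30 (SE 0.19, limma adjusted p = 1.2e-11). NGDN, a further processome protein, stood at 118, 117 and 125 FPKM in DMSO and at 1.85, 2.12 and 2.27 FPKM with the degrader. GRWD1, a histone-binding protein of ribosome assembly, fell from 81.5 ± 7.34 to 1.31 ± 0.264 FPKM, PAK1IP1, a nucleolar protein of large-subunit maturation, from 87.9 ± 8.55 to 1.79 ± 0.38 FPKM and NOP16, of the same process, from 165 ± 14.6 to 3.69 ± 0.433 FPKM. NHP2, a protein of H/ACA small nucleolar ribonucleoproteins, fell least in the list, from 552 ± 50.5 to 266 ± 26.7 FPKM, and NPM1, the abundant nucleolar chaperone, fell from 3548 ± 371 to 1014 ± 78.9 FPKM, a centred 0.38 that reversed to -0.74 under quantile normalization.

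Mitochondrial ribosomal proteins did not share the position of their cytosolic counterparts. All 76 fell, with a median of -2.79 against -0.74 for the cytosolic set, and 49 were lower and 16 higher after centring (median -0.68). MRPL39, of the large subunit, measured 147, 154 and 159.97 FPKM in the DMSO libraries and 4.18, 3.91 and 3.85 FPKM with THAL-SNS-032, a change of -4.95 (SE 0.19, limma adjusted p = 1.8e-11). MRPS30, of the small subunit, fell from 57.1 ± 2.33 to 1.56 ± 0.430 FPKM, and MRPL11, at the other end of the list, from 177 ± 19 to 90.8 ± 6.41 FPKM. EIF4E, the factor that binds the mRNA cap, fell from 118 ± 6.86 to 7.85 ± 0.522 FPKM, far below the median of -1.96 over 43 initiation factors.

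The heat shock and stress response lists lay low, while other lists of folding genes did not. The 29 heat shock proteins and co-chaperones had a median of -2.92, and after centring 22 were lower and 6 higher (median -1.09). HSPA8, the constitutive HSP70 chaperone and one of the most abundant mRNAs of these cells, went from 3562, 4472 and 4451 FPKM in the vehicle libraries to 196, 236 and 203 FPKM in the treated ones, a change of -4.29 (SE 0.21, limma adjusted p = 9.5e-11). Its co-chaperones DNAJA1 and DNAJA2 fell from 949 ± 97.2 to 29.2 ± 3.09 FPKM and from 77.8 ± 5.87 to 1.31 ± 0.25 FPKM. HSP90AB1, by contrast, fell from 2151 ± 242 to 747 ± 56.1 FPKM, a centred 0.66 that turned to -0.30 under quantile normalization, and the small heat shock gene HSPB1 fell from 72.8 ± 12.7 to 35.0 ± 2.49 FPKM.

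The integrated stress and unfolded protein response list had the lowest median of the lists drawn, -2.97 (-1.84 after centring, with 3 higher and 16 lower of 21). DDIT4, a stress-induced inhibitor of mTOR complex 1, measured 195, 223 and 248 FPKM in the DMSO libraries and 6.27, 7.78 and 3.58 FPKM with THAL-SNS-032. XBP1, a transcription factor of the unfolded protein response, stood at 126, 147 and 147 FPKM in DMSO and at 2.95, 4.30 and 2.94 FPKM with the degrader. HERPUD1, a factor of degradation at the endoplasmic reticulum, went from 79.0, 80.9 and 86.2 FPKM in the vehicle libraries to 1.6, 1.75 and 1.19 FPKM in the treated ones. In each of these 3 genes the treated libraries lay far below every DMSO library. ATF4, the central transcription factor of the response, fell from 671 ± 79.3 to 84.5 ± 5.65 FPKM. ASNS, asparagine synthetase and a known ATF4 target, fell least, from 20.9 ± 2.54 to 9.84 ± 1.24 FPKM. CALR, a calcium-binding chaperone of the endoplasmic reticulum, fell from 1610.5 ± 204 to 166 ± 16.7 FPKM. The wider list of 39 folding, translocon and secretory genes lay higher, with 24 higher and 12 lower after centring. Its centred median was 0.30, but -0.093 under quantile normalization.

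Degradation genes were nearer the middle. The 38 proteasome subunits had a median of -1.96 and 21 higher and 11 lower after centring (median 0.20, but -0.30 under quantile normalization), and they ran from PSMC6, an ATPase of the base, from 188 ± 7.43 to 12.9 ± 0.935 FPKM, to PSME1, an activator subunit, from 953 ± 73.7 to 613 ± 43.8 FPKM. CRBN, the cereblon gene whose protein the compound recruits, measured 37.5, 37.2 and 39.6 FPKM in the DMSO libraries and 4.31, 4.88 and 4.12 FPKM with THAL-SNS-032, a change of -2.85 (SE 0.20, limma adjusted p = 2.2e-09). NEDD8, the modifier that activates cullin ligases, fell from 703 ± 83.3 to 418 ± 24.5 FPKM. KEAP1, a substrate adaptor of a cullin ligase, fell from 63.9 ± 3.19 to 1.76 ± 0.386 FPKM. Of 32 cullin ligase and cereblon genes 13 were higher and 17 lower after centring. Known neosubstrate genes of thalidomide analogues behaved unequally: IKZF1, a lymphoid transcription factor, fell from 95.1 ± 7.85 to 29.9 ± 2.52 FPKM and its relative IKZF2 from 13.3 ± 1.42 to 0.509 ± 0.0942 FPKM. RNA was measured here, so these values say nothing of the proteins.

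Metabolic genes separated sharply within pathways. Most glycolytic enzymes kept more mRNA than the median gene (median -1.32 over 23 genes, 0.86 after centring with 13 higher and 10 lower, but -0.11 under quantile normalization). GAPDH measured 8463, 11318 and 10924 FPKM in the DMSO libraries and 4629, 5346 and 4965 FPKM with THAL-SNS-032, and its centred 1.15 reversed to -0.33 under quantile normalization. PGK1, phosphoglycerate kinase, and LDHB, a subunit of lactate dehydrogenase, fell from 982 ± 100.4 to 533 ± 32.3 FPKM and from 2711 ± 299.8 to 1403 ± 99.2 FPKM. LDHA, the other main subunit, stood at 1325, 1616 and 1657 FPKM in DMSO and at 104, 122 and 104 FPKM with the degrader, a change of -3.78 (SE 0.20, limma adjusted p = 1.9e-10) against -0.95 for LDHB. SLC2A1, the glucose transporter GLUT1, went from 36.2, 37.6 and 42.5 FPKM in the vehicle libraries to 0.555, 0.992 and 0.384 FPKM in the treated ones, and PFKFB3, which makes the activator of phosphofructokinase, fell from 35.1 ± 3.8 to 0.855 ± 0.0756 FPKM. The lactate dehydrogenase subunits thus lay far apart, and genes of glucose entry and of its control were at the low end.

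Respiratory and redox genes lay high. Of 71 nuclear-encoded respiratory chain subunits 68 fell and 3 were not called (median -1.02), and 63 were higher and 5 lower after centring (median 1.16, and 0.44 under quantile normalization). COX7C and ATP5J2, small subunits of cytochrome c oxidase and ATP synthase, fell from 2793 ± 249 to 1746 ± 105 FPKM and from 2027 ± 233 to 1279 ± 106 FPKM, and the complex I gene NDUFV2 fell far more, from 347 ± 27.2 to 40.8 ± 5.82 FPKM. Respiratory transcripts made up 3.39% of the summed FPKM in DMSO and 4.45% with THAL-SNS-032. Among 29 redox genes 21 were higher and 8 lower after centring (median 0.94). FTL, the ferritin light chain, fell from 2321 ± 331 to 1431 ± 119 FPKM and PRDX2, a peroxiredoxin, from 632 ± 76.9 to 377 ± 21.7 FPKM, whereas GCLC, the first enzyme of glutathione synthesis, measured 40.8, 42.5 and 48.6 FPKM in the DMSO libraries and 1.34, 1.5 and 1.10 FPKM with THAL-SNS-032.

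TXNIP, an inhibitor of thioredoxin and of glucose uptake, did not follow the general fall. It stood at 53.6, 58.0 and 61.2 FPKM in DMSO and at 58.2, 63.2 and 64.9 FPKM with the degrader, the groups overlapped and the difference was 0.11 (SE 0.20, limma adjusted p = 0.6, 95% interval -0.31 to 0.53). SQLE, a monooxygenase of cholesterol synthesis, fell from 95.6 ± 6.79 to 4.44 ± 1.09 FPKM and LSS, the next enzyme of that pathway, from 55.0 ± 5.60 to 32.3 ± 2.58 FPKM. SLC1A5, a glutamine transporter, fell from 99.1 ± 11 to 1.92 ± 0.243 FPKM and SLC38A2, a transporter of small neutral amino acids, from 116 ± 7.43 to 2.75 ± 0.167 FPKM.

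Transcripts that kept their level were few. Among 3646 named genes with 50 FPKM or more in DMSO, 20 were not called and 1 was called higher. For 50 of them the 95% interval stayed within 2-fold, of which 15 encode cytosolic ribosomal proteins and 5 respiratory subunits. The gene LENG8 measured 48.5, 57.3 and 65.1 FPKM in the DMSO libraries and 53.9, 59.3 and 56.9 FPKM with THAL-SNS-032, a difference of 0.00 with a 95% interval of -0.44 to 0.44. CCNL2, a cyclin of splicing speckles, stood at 94.0, 113 and 116 FPKM in DMSO and at 87.9, 102 and 92.7 FPKM with the degrader, also with overlapping groups (-0.19, 95% interval -0.62 to 0.25).

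T-cell genes covered the whole range of change. CD3D and CD3E, invariant chains of the T-cell receptor complex, fell from 2045 ± 280.3 to 642 ± 25.1 FPKM and from 895 ± 119 to 400.5 ± 26.5 FPKM, with centred values of 0.52 and 1.03, the first of which reversed to -0.42 under quantile normalization. The co-receptor for adhesion CD2 measured 135, 149.5 and 155 FPKM in the DMSO libraries and 4.07, 4.93 and 4.31 FPKM with THAL-SNS-032, a change of -4.76 (SE 0.19, limma adjusted p = 2.1e-11). Its ligand CD58 stood at 38.2, 35.5 and 41.6 FPKM in DMSO and at 0.391, 0.820 and 0.735 FPKM with the degrader, so that both ended at a few FPKM or less. PTCRA, the pre-T-cell receptor chain of immature thymocytes, went from 22.6, 27.5 and 22.2 FPKM in the vehicle libraries to 14.4, 18.2 and 14.9 FPKM in the treated ones. That is a change of -0.58 (SE 0.19, limma adjusted p = 0.0097), the smallest in the T-lineage list, and its call was lost without DMSO replicate 2 (-0.48). Over the 26 tested T-lineage surface genes 13 were higher and 8 lower after centring (median 0.17). The kinase ZAP70 fell from 651 ± 89.4 to 259 ± 19.6 FPKM, the adaptor LCP2 from 78.1 ± 3.70 to 3.99 ± 0.444 FPKM and TRAT1, a receptor-associated adaptor, from 91.4 ± 3.76 to 4.08 ± 0.603 FPKM. For 33 receptor signalling genes the centred split was 10 higher and 19 lower (median -0.36).

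The GIMAP genes, GTPases of lymphocyte survival, were uniformly low. All 7 fell (median -2.70), and after centring 0 were higher and 6 lower. GIMAP5 measured 84.4, 95.6 and 103 FPKM in the DMSO libraries and 2.57, 2.24 and 1.35 FPKM with THAL-SNS-032, a change of -4.98 (SE 0.18, limma adjusted p = 1.2e-11), and GIMAP2 fell from 142 ± 5.58 to 8.25 ± 1.36 FPKM. HLA class I and peptide-loading genes lay on the other side with 11 higher and 2 lower of 17 after centring (median 0.69), among them the heavy chain gene HLA-B, which fell from 196 ± 27.0 to 112 ± 12.9 FPKM. B2M, the invariant chain of class I molecules, stood at 2392, 2805 and 2864 FPKM in DMSO and at 1479.8, 1786 and 1575 FPKM with the degrader. CD69, an early activation antigen, fell from 26.3 ± 0.996 to 0.878 ± 0.202 FPKM, and CXCR4, the homing receptor, from 484 ± 49.6 to 54.6 ± 5.94 FPKM. Interferon-stimulated genes held both IFI6, which fell from 126 ± 16.9 to 78.9 ± 7.23 FPKM, and the antibody receptor TRIM21, which fell from 36.6 ± 3.0 to 0.70 ± 0.186 FPKM.

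The transcription factors that mark T-ALL did not move as a block. The proto-oncogene MYC measured 299.7, 340.2 and 352 FPKM in the DMSO libraries and 12.9, 17 and 13.8 FPKM with THAL-SNS-032. MYB, a factor of immature blood cells, stood at 411, 462 and 493 FPKM in DMSO and at 25.3, 29.2 and 24.8 FPKM with the degrader. The oncogene TAL1 fell from 29.9 ± 2.53 to 2.77 ± 0.486 FPKM. All 3 lay below the median gene after centring, at -2.31, -1.92 and -1.2. BCL11B, a factor of T-cell commitment, went from 52.7, 55.0 and 60.8 FPKM in the vehicle libraries to 30.6, 35.0 and 30.4 FPKM in the treated ones, and ETV6, a repressor of the ETS family, fell from 31.0 ± 2.52 to 17.9 ± 0.875 FPKM. Both lay above the median gene after centring, at 1.36 and 1.37. GATA3 fell from 30.5 ± 2.48 to 3.75 ± 0.307 FPKM and HES1, a NOTCH target, from 56.7 ± 4.28 to 2.59 ± 0.409 FPKM, while NOTCH1 itself fell from 116 ± 12.8 to 37.0 ± 3.33 FPKM and lay at 0.53 after centring. Of 24 factors 10 were higher and 12 lower after centring (median -0.13, and 0.15 when each library was divided by its own median). HHEX, a homeobox factor of early blood cells, was the 1 member called higher on the deposited scale: it measured 1.45, 1.77 and 1.77 FPKM in the DMSO libraries and 6.86, 8.07 and 8.0 FPKM with THAL-SNS-032, a difference of 1.70 (SE 0.18, limma adjusted p = 2.1e-07).

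**Figure D3:**
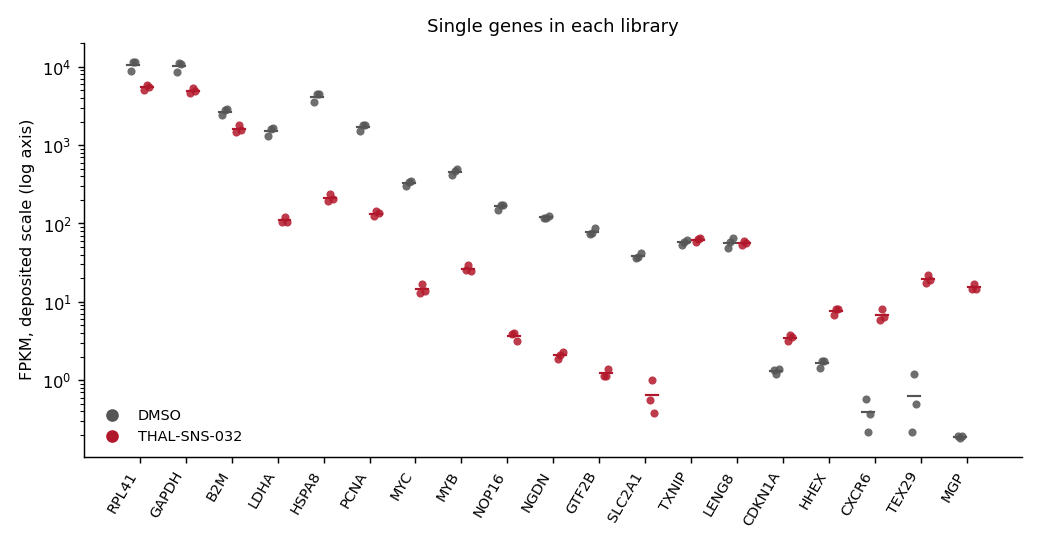
FPKM on the deposited scale, on a log axis, in each of the 3 DMSO and 3 THAL-SNS-032 libraries for 19 genes named in the text, with a short line at each group's mean. RPL41, GAPDH and B2M lose the least of the falling genes, GTF2B and SLC2A1 end near 1 FPKM, TXNIP and LENG8 overlap between the groups, and the 5 genes on the right lie higher with THAL-SNS-032.

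The lists of NF-kB and immediate early genes had medians below that of all tested genes, with members on both sides of it. NFKBIA, the inhibitor that NF-kB induces, measured 38.8, 40.8 and 47.2 FPKM in the DMSO libraries and 2.09, 2.22 and 3.16 FPKM with THAL-SNS-032, and the NF-kB subunit RELA fell from 58.0 ± 4.13 to 4.12 ± 0.275 FPKM. IKBKG, the regulatory subunit of the kinase that releases NF-kB, fell less, from 41.3 ± 5.28 to 19.3 ± 2.31 FPKM. Of 19 NF-kB genes 4 were higher and 14 lower after centring (median -0.64). Among 16 AP-1 and immediate early genes 15 fell and 1 was not called (median -2.40), and after centring 6 were higher and 10 lower (median -0.80). JUND, an AP-1 subunit, stood at 48.1, 65.6 and 66.3 FPKM in DMSO and at 2.55, 3.44 and 2.46 FPKM with the degrader. KLF6, a zinc finger factor of that list, was the member not called on the deposited scale, with 11.1, 10.3 and 11.7 FPKM in DMSO and 9.85, 12.3 and 9.93 FPKM with THAL-SNS-032 (limma adjusted p = 0.82). BTG1, an antiproliferative gene, fell from 18.5 ± 1.17 to 0.239 ± 0.0528 FPKM and DUSP7, a phosphatase of the MAPK pathway, from 33.5 ± 1.70 to 0.916 ± 0.186 FPKM, while the kinase gene MAPK3 fell from 50.2 ± 6.18 to 26.9 ± 1.83 FPKM. PIK3R1, the regulatory subunit of PI3-kinase, went from 38.8, 38.8 and 41.8 FPKM in the vehicle libraries to 1.00, 1.08 and 1.03 FPKM in the treated ones, against from 9.86 ± 0.999 to 6.27 ± 0.293 FPKM for RICTOR, a component of mTOR complex 2.

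Clock genes also sat low, with 3 higher and 12 lower of 15 after centring (median -1.04). NR1D1, a repressor in the clock, measured 12.3, 10.7 and 13.9 FPKM in the DMSO libraries and 0.268, 0.193 and 0.201 FPKM with THAL-SNS-032. NFIL3, a repressor at clock output genes, stood at 12.6, 11.4 and 12 FPKM in DMSO and at 0.265, 0.286 and 0.208 FPKM with the degrader. Both ended near the floor of the table. CLOCK itself fell from 4.09 ± 0.445 to 2.17 ± 0.243 FPKM.

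Cell death genes were read as 3 lists. The 9 tested survival genes of the BCL2, IAP and CFLAR group had a median of -1.64, above that of all tested genes (5 higher with 1 lower after centring), and 25 caspases, apoptosome genes and death receptors had a lower one (median -2.58, with 1 higher and 20 lower after centring). The 10 death-promoting members of the BCL2 family had a median of -2.20 with 5 higher and 5 lower, and differences between the lists were not tested. BIRC5, which encodes survivin, measured 182, 199 and 216 FPKM in the DMSO libraries and 114, 136 and 122 FPKM with THAL-SNS-032. BCL2 fell from 6.92 ± 0.645 to 2.40 ± 0.0789 FPKM. MCL1, the short-lived survival protein, fell from 92.9 ± 6.63 to 19.3 ± 1.26 FPKM. Its centred -0.08 was not called (limma adjusted p = 0.05), but it was called without DMSO replicate 1 (-0.10), without SNS-032 replicate 2 (-0.083) and without THAL-SNS-032 replicate 3 (-0.12), with a pseudocount of 5 (-0.080) and under quantile normalization (-0.16). Division by each library's own median gave 0.20, below the 0.28 of the median gene on that scale. FADD, the adaptor of death receptors, went from 35.3, 39.1 and 42.8 FPKM in the vehicle libraries to 1.10, 0.983 and 1.09 FPKM in the treated ones. The receptor FAS fell from 15.9 ± 1.71 to 0.764 ± 0.164 FPKM. CYCS, cytochrome c, and BAX fell less, from 171 ± 8.68 to 57.6 ± 4.08 FPKM and from 159 ± 13.8 to 56.2 ± 5.47 FPKM.

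CDKN1A, the p53 target that encodes the cell cycle inhibitor p21, was the 1 of 31 p53 genes called higher. It measured 1.36, 1.2 and 1.40 FPKM in the DMSO libraries and 3.15, 3.76 and 3.58 FPKM with THAL-SNS-032, all treated libraries above all DMSO libraries, a difference of 0.95 (SE 0.12, limma adjusted p = 2.6e-06). Elsewhere in that list 29 fell and 1 was not called (median -2.21), with 10 higher and 20 lower after centring. GADD45A, a growth arrest gene, fell from 17.3 ± 2.21 to 0.511 ± 0.0674 FPKM, PPM1D, the phosphatase that ends p53 signalling, from 17.8 ± 1.56 to 1.19 ± 0.208 FPKM and SESN1, a stress sensor, from 15.1 ± 0.797 to 1.75 ± 0.317 FPKM.

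Cell cycle genes fell by unequal amounts within both replication and mitosis. PCNA, the replication clamp, measured 1529.8, 1806 and 1834 FPKM in the DMSO libraries and 124, 143 and 134 FPKM with THAL-SNS-032, a change of -3.67 (SE 0.22, limma adjusted p = 4.4e-10). GINS3, of the replicative helicase, fell from 53.4 ± 4.55 to 1.19 ± 0.251 FPKM and the exonuclease gene EXO1 from 49.9 ± 1.87 to 1.17 ± 0.0972 FPKM. LIG1, the replicative ligase, and POLE, the leading-strand polymerase, fell much less, from 122 ± 13.3 to 70.2 ± 4.16 FPKM and from 85.1 ± 10.6 to 43.1 ± 2.33 FPKM. For 43 G1/S and replication genes the centred split was 14 higher and 27 lower (median -0.46). TTK and AURKA, both mitotic kinases, fell from 45.3 ± 0.722 to 1.17 ± 0.203 FPKM and from 125 ± 8.43 to 8.24 ± 0.262 FPKM. PRC1, a bundler of the anaphase spindle, stood at 69.8, 78.3 and 82.8 FPKM in DMSO and at 60.7, 67.1 and 61.7 FPKM with the degrader and was not called at -0.28 (limma adjusted p = 0.18), but it passed when SNS-032 replicate 1 was left out and in a fit of the 6 libraries alone, with the same difference. The 48 G2/M genes had 19 higher and 24 lower after centring (median -0.11, and 0.17 when each library was divided by its own median). In DNA repair FANCA, of the Fanconi core complex, fell from 40.7 ± 3.78 to 24.4 ± 2.18 FPKM and XRCC6, the Ku70 subunit, from 971 ± 107 to 516 ± 25.9 FPKM. Both fell less than the median gene, unlike many members of their lists. Of 42 genes of DNA damage signalling and homologous recombination, 13 were higher and 22 lower after centring (median -0.22). Of 40 end joining, mismatch and excision repair genes, 13 were higher and 20 lower (median -0.14).

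Chromatin genes showed the same contrast between related members. EED, a core subunit of the H3K27 methyltransferase complex PRC2, measured 66.9, 65.0 and 69.6 FPKM in the DMSO libraries and 2.44, 2.77 and 2.28 FPKM with THAL-SNS-032, while EZH1, 1 of its catalytic subunits, fell from 20.6 ± 2.04 to 10.1 ± 0.444 FPKM. Of 26 Polycomb genes 10 were higher and 15 lower after centring (median -0.55). KAT5, an acetyltransferase, fell from 49.2 ± 2.46 to 1.46 ± 0.0704 FPKM and HDAC1, a deacetylase, from 304 ± 31.0 to 199 ± 17.2 FPKM.

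ZNF-named genes, most of which encode zinc finger proteins of low abundance, fell in 386 of 391 cases (median -2.25). After centring 78 were higher and 271 lower, a share of lower calls of 69.3% against 42.6% over all tested genes. ZNF689, 1 of those with the largest falls, measured 22.5, 23.5 and 24.7 FPKM in the DMSO libraries and 0.363, 0.508 and 0.301 FPKM with THAL-SNS-032. ZNF35 was the 1 member called higher, from 1.11, 0.880 and 0.919 FPKM to 2.01, 2.28 and 1.91 FPKM, a difference of 0.64 (SE 0.17, limma adjusted p = 0.0021). Cytoskeletal genes lay high, with 29 higher and 8 lower of 38 actin, tubulin and regulator genes after centring (median 0.72, and 0.014 under quantile normalization). CFL1, cofilin, fell from 2399.5 ± 334 to 1409.9 ± 119.8 FPKM, TMSB4X, a binder of actin monomers, from 9510.3 ± 886 to 5830.5 ± 540.5 FPKM, and ACTB from 3161 ± 467 to 934 ± 73.3 FPKM, and under quantile normalization the centred 0.43 of ACTB reversed to -0.61 while the 1.48 of TMSB4X shrank to 0.00067. TUBB4B, a tubulin gene, fell from 432 ± 66.3 to 36.0 ± 2.48 FPKM.

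**Figure D4:**
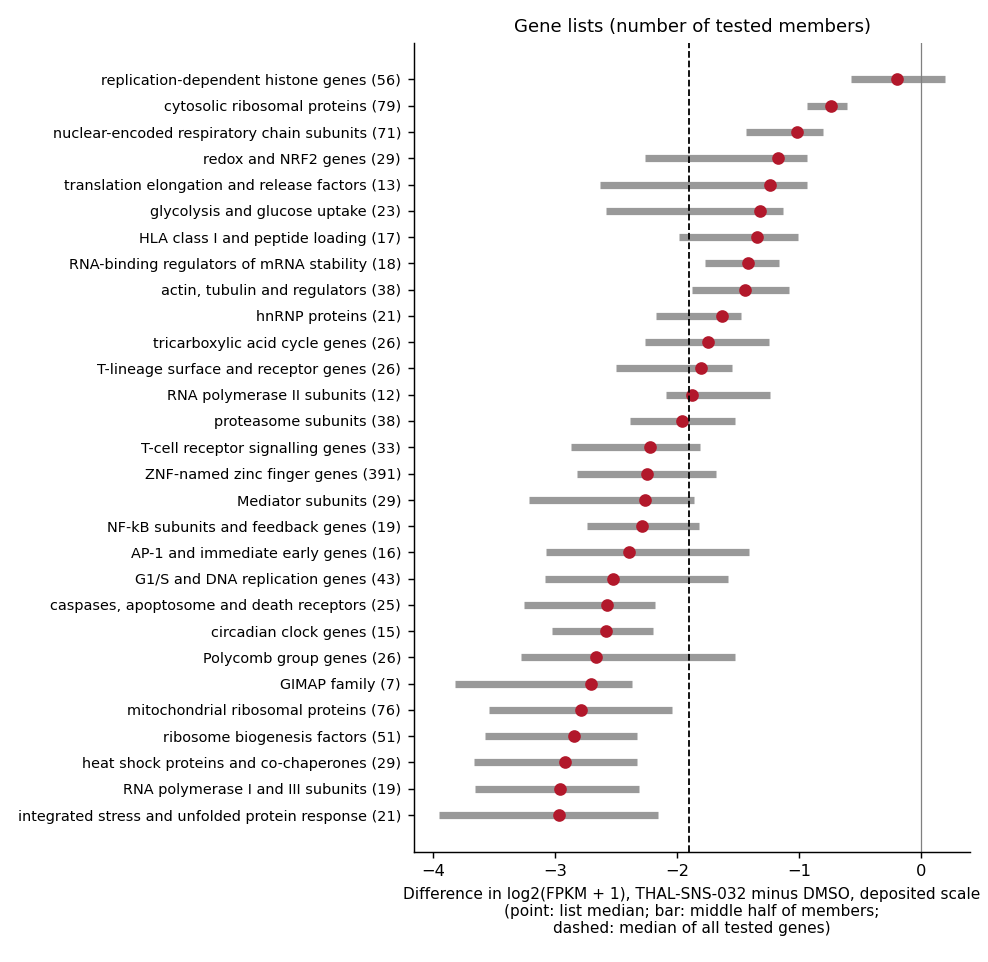
Median difference in log2(FPKM + 1), THAL-SNS-032 minus DMSO on the deposited scale, for 29 gene lists with the number of tested members in brackets, with a bar from the lower to the upper quartile of members and a dashed line at the median of all tested genes (-1.90). Histone genes (-0.20), cytosolic ribosomal proteins (-0.74) and respiratory subunits (-1.02) are at the top, and polymerase I and III subunits (-2.96) and the stress response list (-2.97) are at the bottom.

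The 156 genes called higher were mostly genes at low levels in DMSO. Of these, 38 are short RNAs or unnamed loci, whose FPKM is uncertain in a poly(A) library. Among the 118 others the DMSO mean was under 1 FPKM in 58 and under 5 FPKM in 113, and 56 rose by at least 2-fold on the log2(FPKM + 1) scale. The groups did not overlap in 115, which is no separate support because these genes were picked by their call. The median of these genes went from 1.07 FPKM in DMSO to 3.48 FPKM with THAL-SNS-032. Because the tested genes include those that reached 1 FPKM only through a treated group, these counts describe the genes called and no wider set.

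Leaving out short RNAs and unnamed loci, the largest rise was in MGP, matrix Gla protein, which measured 0.192, 0.183 and 0.197 FPKM in the DMSO libraries and 14.5, 16.8 and 14.7 FPKM with THAL-SNS-032 and differed by 3.78 (SE 0.13, limma adjusted p = 1.2e-11). TEX29, a testis-expressed gene, stood at 0.218, 1.19 and 0.502 FPKM in DMSO and at 17.2, 21.8 and 18.9 FPKM with the degrader. RCVRN, recoverin, a calcium sensor of photoreceptors, went from 0.487, 0.326 and 0.781 FPKM in the vehicle libraries to 11.5, 13.0 and 10.3 FPKM in the treated ones. All 3 were at or below 1.19 FPKM in every DMSO library. The small GTPase gene RASL11A rose from 1.26 ± 0.436 to 23.7 ± 2.25 FPKM, MIA, a secreted protein, from 0.460 ± 0.264 to 9.93 ± 0.912 FPKM and the amino acid transporter SLC6A20 from 0.182 ± 0.00831 to 7.6 ± 0.864 FPKM. RAPSN, which clusters acetylcholine receptors, rose from 0.373 ± 0.139 to 8.86 ± 1.23 FPKM, and CHRNA10, a subunit of such receptors, from 2.37 ± 0.27 to 8.94 ± 1.01 FPKM. APOE, the lipid carrier, measured 0.499, 0.837 and 0.959 FPKM in the DMSO libraries and 9.71, 10.7 and 9.73 FPKM with THAL-SNS-032. PYGM, muscle glycogen phosphorylase, rose from 0.896 ± 0.146 to 10.1 ± 0.732 FPKM and ELOVL3, a fatty acid elongase, from 0.166 ± 0.00637 to 5.18 ± 1.03 FPKM. NCF1 and its near-identical copy NCF1B rose from 0.343 ± 0.0681 to 8.32 ± 1.15 FPKM and from 0.256 ± 0.0550 to 5.78 ± 0.316 FPKM, and the split of reads between them is uncertain.

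A few rises were in genes with a place in blood cells. CXCR6, a chemokine receptor of T and NK cells, measured 0.574, 0.218 and 0.368 FPKM in the DMSO libraries and 5.78, 8.05 and 6.32 FPKM with THAL-SNS-032, a difference of 2.47 (SE 0.14, limma adjusted p = 3.4e-10). CD14, a co-receptor of monocytes, stood at 0.395, 0.438 and 0.405 FPKM in DMSO and at 1.85, 1.76 and 1.27 FPKM with the degrader. ACTA2, smooth muscle actin and a marker of the epithelial and stromal list rather than of blood cells, rose from 0.956 ± 0.0434 to 1.93 ± 0.507 FPKM. The part of myeloid cells in the CD14 value was not tested, and the whole myeloid list summed to at most 6.44 FPKM.

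The levels of the largest rises under the other compounds, at the same dose and time, are set side by side here, and all 3 comparisons with DMSO share its libraries. Of the 15 largest rises, 14 were also called higher than DMSO with SNS-032 and 3 with NVP-2. Of all 118 named genes called higher, 75 were also called higher with SNS-032 and 14 with NVP-2. The share of all tested genes called higher with those compounds is not given here. These counts are therefore not read as a trait of the genes that rose. Compared directly with SNS-032, 54 of the 118 were higher with THAL-SNS-032, 19 were lower and 45 were not called. MGP stood at 15.3 ± 1.29 FPKM with THAL-SNS-032, 1.24 ± 0.367 FPKM with SNS-032 and 0.268 ± 0.0939 FPKM under NVP-2, a difference from SNS-032 of 2.88 (SE 0.13, limma adjusted p = 1.3e-08). SLC6A20 stood at 7.6 ± 0.864, 1.47 ± 0.408 and 0.102 ± 0.000979 FPKM in the same order, and RASL11A at 23.7 ± 2.25, 26.0 ± 6.60 and 7.07 ± 0.531 FPKM. For RASL11A the difference from SNS-032 was not called, with a 95% interval of -0.52 to 0.32. PYY2 and CHRNA10 differed from SNS-032 by 1.72 (SE 0.16, limma adjusted p = 2e-06) and 2.19 (SE 0.15, limma adjusted p = 2.1e-07). These genes were chosen on the THAL-SNS-032 libraries, which also enter the direct contrasts, so the direction of those contrasts is partly set by the choice.

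**Figure D5:**
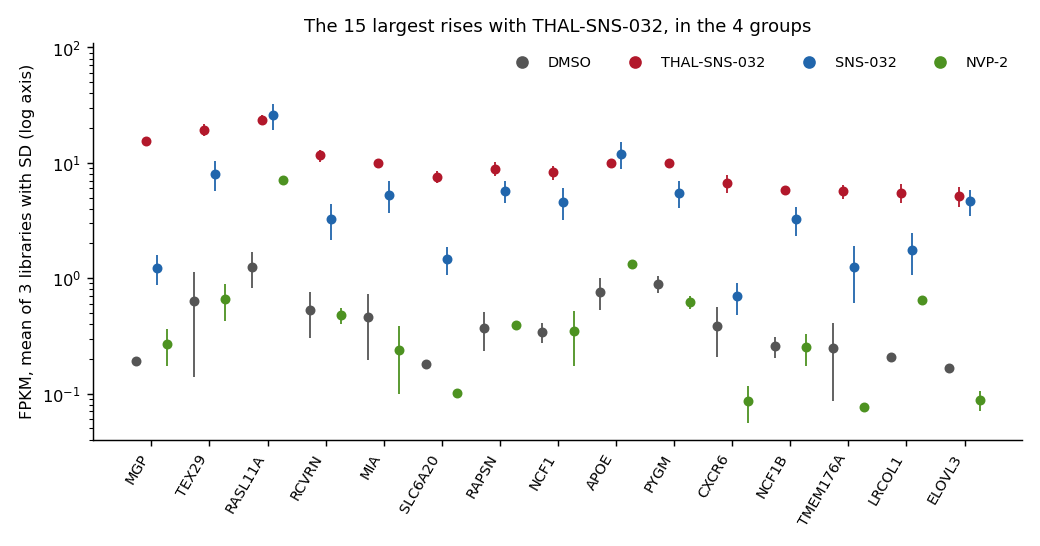
FPKM on a log axis, mean of 3 libraries with SD, for the 15 largest rises with THAL-SNS-032 in DMSO, THAL-SNS-032, SNS-032 and NVP-2. All 15 lie above 5 FPKM with THAL-SNS-032, and the highest DMSO or NVP-2 mean apart from RASL11A with NVP-2 is 1.33 FPKM, for APOE with NVP-2. With SNS-032, 14 of the 15 were also called higher than in DMSO.

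The median replication-dependent histone gene lay close to its DMSO level on the deposited scale (members from -1.83 to 1.12). Some lists of short RNAs also had medians close to the DMSO level, but their members changed widely in both directions. The median was 0.12 (-3.565 to 4.44) for 23 small Cajal, spliceosomal and RNA polymerase III RNAs. For 92 microRNA precursors it was -0.28 (-7.77 to 9.17). Replication-dependent histone genes lack introns and their mRNAs normally end in a stem-loop without a poly(A) tail. Poly(A) libraries are therefore expected to hold only part of them. The median histone gene of this list stood at 2.37 FPKM in DMSO against 28.0 FPKM over all tested genes. Of 72 such genes in the table, 56 passed the filter of 1 FPKM over the 12 libraries. At such low levels a gene passes more easily if it fell little or rose. The list's median and the counts that follow are therefore partly set by the filter. Of 56 tested genes 6 were called higher, 14 lower and 36 were not called (median -0.20), and after centring 49 were higher and 0 lower (median 1.49, and 1.22 under quantile normalization). Their share of the summed FPKM went from 0.0337% to 0.0626%. HIST1H3G measured 0.221, 1.14 and 0.781 FPKM in the DMSO libraries and 2.46, 3.92 and 1.83 FPKM with THAL-SNS-032, a difference of 1.12 (SE 0.30, limma adjusted p = 0.0022). HIST1H4D stood at 1.07, 0.20 and 1.11 FPKM in DMSO and at 2.58, 2.11 and 1.62 FPKM with the degrader. HIST1H2AJ went from 3.73, 1.84 and 5.10 FPKM in the vehicle libraries to 6.76, 8.19 and 5.55 FPKM in the treated ones. The spread between DMSO libraries was wide in each, and the call of HIST1H2AJ was lost without DMSO replicate 2 (0.53). The near-identical pair HIST1H4J and HIST1H4K, whose reads cannot be told apart with certainty, stood at 42.1 ± 9.85 and 43.0 ± 10.0 FPKM in DMSO and at 38.6 ± 4.91 and 39.2 ± 5.95 FPKM with the compound. HIST3H2A fell, from 10.4 ± 2.90 to 2.15 ± 0.460 FPKM. Variant histones with ordinary polyadenylated mRNAs did not share this position: H2AFZ fell from 2330.2 ± 190.3 to 542 ± 48.6 FPKM and H2AFV from 392 ± 25.1 to 235 ± 22.2 FPKM, and 8 of 10 such genes fell.

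To show promoter letters that were more frequent in this list than over all starts, the 100 bases before the start are given for 3 histone genes that were called higher and for 2 genes with very large falls, GTF2B and NGDN. The sequences are those of RefSeq on GRCh38.p14, on the gene's strand, 5′ to 3′, at chr6:26271414-26271513 for HIST1H3G, chr6:26189113-26189212 for HIST1H4D, chr6:27814778-27814877 for HIST1H2AJ, chr1:88891568-88891667 for GTF2B and chr14:23469603-23469702 for NGDN. Capitals mark the letters TATAAA and also CCAAT with its reverse complement ATTGG.
HIST1H3G: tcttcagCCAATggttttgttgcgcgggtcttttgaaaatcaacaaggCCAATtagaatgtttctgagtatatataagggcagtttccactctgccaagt
HIST1H4D: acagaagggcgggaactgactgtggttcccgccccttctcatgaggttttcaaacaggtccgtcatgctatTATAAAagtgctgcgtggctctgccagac
HIST1H2AJ: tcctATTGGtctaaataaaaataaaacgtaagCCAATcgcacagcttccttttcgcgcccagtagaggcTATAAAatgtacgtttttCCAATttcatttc
GTF2B: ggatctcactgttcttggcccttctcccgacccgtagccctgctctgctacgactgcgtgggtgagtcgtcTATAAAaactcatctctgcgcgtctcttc
NGDN: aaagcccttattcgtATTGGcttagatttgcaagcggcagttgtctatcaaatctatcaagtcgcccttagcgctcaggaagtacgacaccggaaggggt

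In these windows TATAAA began 29 bases before the start in HIST1H4D, 31 in HIST1H2AJ and 29 in GTF2B, and was absent from HIST1H3G and NGDN. Over the 250 bases before the start, searched on both strands, TATAAA was present at 62.5% and CCAAT at 85.4% of 48 starts of 45 histone genes, against 5.59% and 34.0% of starts of all tested named genes and 10.7% and 32.0% of all 35116 starts of the RefSeq table. A TATAAA on the gene strand between 45 and 16 bases before the start was present at 56.2% of histone starts, 1.42% of starts of tested genes and 2.38% of all starts. Histone windows had a median GC content of 43.2% against 64.4%. The 500 named genes with the most negative change had TATAAA at 7.47% and CCAAT at 33.1% of starts, close to all tested genes, and TATAAA at the position between 45 and 16 bases at 2.72%. The same count over the 118 genes called higher is void, because only 67.0% of them matched a RefSeq start, and it is void at 74.4% for the 500 genes with a change closest to 0. GTF2B shows that a TATAAA at this position also occurs in front of a gene that fell by -5.16. A match is a description of letters and not a site in use.

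Non-coding RNAs followed no single course. RPPH1, the RNA of RNase P and a product of RNA polymerase III, measured 5.19, 11.3 and 2.37 FPKM in the DMSO libraries and 85.0, 93.7 and 96.4 FPKM with THAL-SNS-032, a difference of 3.87 (SE 0.38, limma adjusted p = 1.2e-07), and it was also high with SNS-032 (119 ± 56.9 FPKM) and NVP-2 (122 ± 14.7 FPKM). TERC, the telomerase RNA, stood at 0.222, 0.204 and 0.229 FPKM in DMSO and at 2.37, 2.42 and 1.99 FPKM with the degrader (SNS-032 2.37 ± 0.823 FPKM, NVP-2 3.66 ± 0.614 FPKM). NEAT1, the scaffold of paraspeckles, fell from 40.7 ± 3.19 to 6.12 ± 0.646 FPKM, and MIR17HG, the host of the miR-17-92 cluster, from 24.5 ± 2.87 to 0.512 ± 0.131 FPKM. Host transcripts of small nucleolar RNAs ranged from SNHG12, from 89.2 ± 11.3 to 3.0 ± 0.747 FPKM, to SNHG5, from 1146 ± 135 to 751 ± 39.0 FPKM, and after centring 11 of 20 were higher and 8 lower (median 0.23, but -0.11 under quantile normalization). Short RNAs are poorly measured in these libraries: of 83 H/ACA small nucleolar RNAs 41 fell, 3 rose and 39 were not called, and of 92 microRNA precursors 16 fell and 11 rose.

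The change differed between classes of gene structure. Among genes with 20 FPKM or more in DMSO, a limit set after the data were seen to keep values off the floor, the median log2 ratio was -2.65 for genes with 1 exon, -2.90 for 2 exons, -2.20 for 3 to 5, -2.24 for 6 to 10, -2.18 for 11 to 20 and -1.86 for 21 or more. Transcripts under 1 kb had a median of -1.35, but their median level in DMSO was 226 FPKM against at most 93.1 FPKM in longer classes, whose medians ran from -2.34 to -2.11. By genomic span the medians ran from -2.27 to -1.78 without a steady order, and the 782 genes that span over 100 kb had a median of -2.01. In a list of 9 genes of very long span, picked by name, 8 fell and 1 was not called (median -0.81), which lies far from that wider class. IMMP2L, a mitochondrial peptidase subunit spread over a very long locus, measured 17.6, 15.9 and 17.6 FPKM in the DMSO libraries and 13.6, 16.7 and 15.1 FPKM with THAL-SNS-032, with overlapping groups and a difference of -0.16 (95% interval -0.56 to 0.23), and WWOX, an oxidoreductase gene at a fragile site, fell from 21.3 ± 2.13 to 14.3 ± 1.41 FPKM.

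Against SNS-032, its parent inhibitor without the cereblon ligand, at the same 250 nM and 6 h, THAL-SNS-032 left 1526 genes higher (13.4%) and 1900 lower (16.7%). After centring the counts were 4951 higher (43.5%) and 3290 lower (28.9%). Among the SNS-032 libraries replicate 1 was the outlying one, with a median gene level of 0.147 of that in DMSO against 0.268 and 0.245 in the other 2 libraries. Without it 1499 genes were higher and 3423 lower, and leaving out other single libraries moved the higher count to 960, 614 and 907 without THAL-SNS-032 replicates 1, 2 and 3 and to 2764 without SNS-032 replicate 2. Counts by gene list leaned to either side. Of 31 p53 genes 20 were lower with THAL-SNS-032 and 1 higher (median -0.99, with 25 lower without SNS-032 replicate 1, and 3 and 2 higher without SNS-032 replicates 2 and 3), and of 16 AP-1 and immediate early genes 10 were lower and 1 higher. Among 48 G2/M genes 20 were lower and 2 higher, and among 391 ZNF genes 145 were lower and 34 higher. The lower count of the G2/M list was 32 without SNS-032 replicate 1, and its higher count was 4 without SNS-032 replicate 2 and 0 without THAL-SNS-032 replicate 2. For the ZNF genes the higher count was 65 without SNS-032 replicate 2 and 18 without THAL-SNS-032 replicate 2. Of 42 genes of DNA damage signalling and homologous recombination 19 were higher and 6 lower, and the higher count was 10 without THAL-SNS-032 replicate 2.

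Single genes marked out these differences. GTF2B was 1.22 ± 0.158 FPKM with THAL-SNS-032 against 20.1 ± 6.34 FPKM for SNS-032, a difference of -3.20 (SE 0.20, limma adjusted p = 1.2e-07). NXT1 differed by -3.18 (SE 0.23, limma adjusted p = 3.7e-07), CSTF1 by -2.98 (SE 0.20, limma adjusted p = 1.7e-07) and MRPS30 by -2.71 (SE 0.20, limma adjusted p = 3.9e-07). The homing receptor CXCR4 was 54.6 ± 5.94 FPKM against 341 ± 94.2, a difference of -2.59 (SE 0.21, limma adjusted p = 6.6e-07). All 5 genes were lower with the degrader than with the inhibitor, but they were chosen after these values were seen. Their direction and p-values are therefore partly set by the choice. By contrast, 0 of 79 cytosolic ribosomal proteins were called in either direction (median 0.24), and the 95% interval lay within 2-fold for 78 of them. Likewise 0 of 12 polymerase II subunits were called, all with an interval within 2-fold, although 5 were lower without SNS-032 replicate 1. Over all 11379 tested genes 7953 were not called and 8752 had an interval within 2-fold, so such values were common. CDK9 mRNA differed by -0.02 with a 95% interval of -0.43 to 0.39.

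Against NVP-2, another inhibitor of CDK9, at the same dose and time, THAL-SNS-032 left 7968 genes higher (70.0%) and 113 lower (0.993%). The lower count was 74 without NVP-2 replicate 2, 75 without THAL-SNS-032 replicate 3 and 232 without SNS-032 replicate 1, which enters only through the shared estimate of the spread. After centring 3626 were higher (31.9%) and 3599 lower (31.6%). HNRNPF stood at 96.4 ± 7.69 FPKM with THAL-SNS-032 against 10.6 ± 0.481 FPKM for NVP-2, a difference of 3.07 (SE 0.21, limma adjusted p = 2.5e-07). PCBP1, a poly(C)-binding protein, differed by 3.07 (SE 0.20, limma adjusted p = 1.7e-07), SF3B4, a splicing factor, by 3.18 (SE 0.21, limma adjusted p = 1.5e-07) and CKS2, a partner of cyclin-dependent kinases, by 3.07 (SE 0.21, limma adjusted p = 1.8e-07). These genes and those named next were chosen after their values were seen, so their direction and p-values are partly set by the choice. Few genes were lower than with NVP-2, among them KLHL17 (-0.98 (SE 0.17, limma adjusted p = 0.00028)), TBC1D22B (-0.94 (SE 0.15, limma adjusted p = 0.00019)) and HIST1H1B, a linker histone, at 1.99 ± 0.560 against 7.69 ± 0.794 FPKM (-1.55 (SE 0.24, limma adjusted p = 0.00013)). Of the 56 replication-dependent histone genes 15 were lower with THAL-SNS-032 than with NVP-2 and 7 higher, but 8 were lower without NVP-2 replicate 2, and 3, 4, 4 and 3 were higher without NVP-2 replicates 1 and 3 and THAL-SNS-032 replicates 2 and 3. By contrast, all 79 cytosolic ribosomal proteins were higher.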

How the data were processed

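Libraries of poly(A)-selected, stranded RNA were made from MOLT4 cells that had been counted before lysis, per the labels. Per the submitters' processing notes, HISAT and Cufflinks 2.0.0 were used with hg19, and the annotation and the use of the spike-ins are not given in the sources used here. The deposited table gives 1 FPKM value for each gene and library, as the authors scaled it. No value is 0 and the smallest is 0.0274 FPKM.

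From 23713 entries, 92 ERCC and 4 repeated entries were removed, leaving 23617 names, 24 of them turned into dates. Those averaging at least 1 FPKM were fitted in limma 3.58.1 (R 4.3.3) with trend, on log2(FPKM + 1), over all 4 groups with 8 residual degrees of freedom and two-sided Benjamini-Hochberg adjusted p under 0.05. Median-centred values divide each library by the median ratio of tested genes to the DMSO mean. Library measures were compared by exact two-sided permutation. The fit was checked on simulated data. Alternatives were a pseudocount of 0.1 or 5, other filters, scalings and limma settings, a replicate block, the 6 libraries of a pair and each replicate left out.

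The genes named are part of those that a rule allows: the 15 largest rises and falls, the 10 changes closest to 0 among genes of 50 FPKM or more, the most abundant genes, the extreme and most abundant members of 94 gene lists, the 8 largest differences from each other compound each way, and a fixed set that holds CDK9 and MYC. The comparison, lists and rule were chosen with earlier results of these data known, and the genes printed after their values were seen. Structure came from GENCODE 29 by gene name (10449 genes matched, 8 of them by an older symbol) and promoters from RefSeq for 8894 genes. No protein sequences were used here, and a few genes that the rule allows are not reported here.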

Additional observations from a re-analysis of the deposited data

Results flagged for a closer look

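The 11379 tested genes leave out those with a mean under 1 FPKM over the 12 libraries. In that untested part of the table, 6 genes reached 2 FPKM or more in all 3 THAL-SNS-032 libraries and lay above every DMSO library and were looked at for this reason, of which 5 are given here. ALB, serum albumin, averaged 2.773 FPKM with THAL-SNS-032 (2.45, 3.32 and 2.55 in the libraries) and 0.219 FPKM in DMSO. INSL5, an insulin-like peptide, averaged 3.052 FPKM against 0.160 FPKM, and IL13, a cytokine of T helper cells, 2.574 FPKM against 0.182 FPKM. HP, haptoglobin, averaged 2.415 FPKM against 0.147 FPKM and EPHX3, an epoxide hydrolase, 2.412 FPKM against 0.38 FPKM. In these 5 genes the means with SNS-032 ran from 0.183 FPKM for ALB to 0.709 FPKM for IL13, and those with NVP-2 from 0.0840 FPKM for HP to 0.256 FPKM for EPHX3. These values were chosen for their height and carry no test.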

How the results depend on the processing

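On the deposited scale the count of genes called higher was 42 with a mean of 5 FPKM or more and 693 with no filter on low values, and 15669 genes were higher after centring without that filter. For THAL-SNS-032 against SNS-032 the higher count was 347 with equal ERCC medians and 507 in a fit of the 6 libraries alone, and with single libraries left out it ranged from 614 to 2764 and the lower count from 1479 to 3423. Against NVP-2 the lower count was 62 with equal ERCC medians, 51 with a mean of 5 FPKM or more, 281 in a fit of the 6 libraries alone and 73 with a pseudocount of 5, and it ranged from 74 to 232 with single libraries left out. The library median change was -1.08 with no filter, and the difference in genes reached was -1520 at 0.5 FPKM and -4255 at 5 FPKM. With the replicate number as a replicate block 156 genes were higher and 10814 lower than DMSO, and 2307 were higher than with SNS-032. Deviations of same-numbered libraries correlated at -0.151 to 0.171 over 18 pairs, so the numbers were not taken to pair the libraries, and the block changed the call of 0 of the genes named. The filters change which genes are tested, and the cause of the other moves was not tested.

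Centred values reversed under quantile normalization for ACTB (-0.61), CCNT1 (0.0088), CD3D (-0.42), EEF1A1 (-0.023), GAPDH (-0.33), HNRNPA1 (-0.47), HSP90AB1 (-0.30), NPM1 (-0.74), RPL4 (-0.37), RPL41 (-0.26) and RPL5 (-0.25), and the cause was not tested. HEXIM1 went to 0.064 when each library was divided by its own median, which moves the median of all tested genes to 0.28, so that HEXIM1 still lay below the median gene. Counts of genes called lower than DMSO ranged from 10692 to 10857 and those called higher from 139 to 162 with single libraries left out. Depth is unknown, so the precision of low values cannot be stated.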

Other observations

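Several groups not described above lay near the median gene. The 53 nuclear pore and import genes had a median change of -2.14 on the deposited scale, 20 higher and 23 lower after centring, and the 31 E2 ubiquitin-conjugating enzymes 11 higher and 15 lower. Of 33 genes of mitochondrial import, fission and fusion 11 were higher and 18 lower after centring, and TIMM22, a channel of the inner membrane, went from 32.9, 36.2 and 34.6 FPKM in DMSO to 0.705, 0.584 and 0.582 FPKM. The 14 chaperonin and prefoldin genes had 6 higher and 6 lower (median 0.011, but -0.49 under quantile normalization). Of 30 cytokine receptor and JAK-STAT genes 13 were higher and 13 lower. The 26 genes of the tricarboxylic acid cycle lay higher, with 19 higher and 7 lower after centring (median 0.38).

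Transcripts named as antisense were measured in 93 cases with a median change of -1.51, and 4 rose and 85 fell on the deposited scale. Of 571 unnamed loci 14 rose and 524 fell. Among 28 genes of purine and pyrimidine synthesis 8 were higher and 0 lower when THAL-SNS-032 was set against SNS-032, and 9 higher and 4 lower without SNS-032 replicate 1, and 4 higher without THAL-SNS-032 replicate 2. Of 51 ribosome biogenesis factors 18 were lower and 5 higher than with SNS-032, and 31 were lower without SNS-032 replicate 1. Their higher count was 8 without SNS-032 replicate 2 and 3 without any of the 3 THAL-SNS-032 libraries in turn.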
